A study of Sus scrofa with 6 samples.

Results

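The mRNA levels of 10 secreted inflammatory mediators were followed in cultured pig granulosa cells exposed to heat. The 10 were the chemokines CCL2, CXCL8, CXCL2 and CXCL12, the interleukin-1 family cytokines IL1A, IL1B and IL18, and the interleukin-6 family cytokines IL6, IL11 and LIF. The 10 genes were chosen by name, as secreted mediators, with earlier results of these data known. Of them, 9 each matched 1 of the 35670 pig Ensembl identifiers in the count table. IL1B matched no identifier and was not analysed here. Of the 9, 8 had enough reads to be tested, and CXCL12 did not.

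The samples were 3 heat cultures, held at 42 °C for 6 h, and 3 control cultures, kept at 37 °C for the same 6 h. All were described as primary granulosa cells, the follicle cells that nurse the oocyte and make estradiol. They were aspirated from small healthy follicles of pigs (Sus scrofa) and grown on plastic in medium with serum. The labels name no genetic change or further agent in either group, and give neither the breed nor the age of the pigs. RNA was measured by stranded mRNA sequencing. Samples of a group are labelled as biological replicates, with no word on the animal or culture dish behind each, so p-values measure only the spread between these samples.

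Chemokines are small secreted proteins that draw leukocytes along a gradient. CCL2 attracts monocytes through the receptor CCR2, CXCL8 and CXCL2 attract neutrophils through CXCR1 and CXCR2, and CXCL12 acts on CXCR4 and the scavenging receptor ACKR3. IL1A is an alarmin that binds the receptor IL1R1, which turns on NF-kB, a transcription factor that induces many of the other mediators, while IL1B and IL18 are made as precursors that caspase-1 cleaves. IL6, IL11 and LIF each use a receptor of their own together with the shared chain gp130, encoded by IL6ST, and signal through STAT3. In the ovary these mediators are best known from ovulation, when leukocytes enter the follicle wall.

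Library totals lay between 20411952 and 29606378 reads in heat and between 18711440 and 22599356 reads in controls. Likeness varied within each group. Heat 1 and heat 2 had a Pearson correlation of 0.991 across genes and control 2 and control 3 one of 0.990, whereas heat 3 stood at 0.916 and 0.909 to the other heat libraries and control 1 at 0.901 and 0.905 to the other controls. These values describe likeness across genes, which are no independent replicates. The treatment was visible in each library: 6 of 6 heat shock genes looked up rose, and HSPA6, HSP70.2, BAG3 and DNAJB1 had log2 fold changes of 9.03, 5.41, 4.26 and 3.74 (edgeR adjusted p = 0.00965, 0.00906, 0.0276 and 0.0276). Their summed level was between 8305 and 8580 CPM in heat and between 294 and 433 CPM in controls. CPM is the usual depth-scaled count, with library sizes adjusted by trimmed mean of M-values (TMM) factors. In bulk RNA, fewer cells of a type and less RNA per cell cannot be told apart.

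CCL2, IL1A, CXCL8 and LIF fell in heat and IL11 rose, while IL18, CXCL2 and IL6 did not pass the test (edgeR quasi-likelihood test, two-sided, adjusted over all 14242 tested genes and called below 0.05). Thus 4 of the 8 tested members were called lower, where 4.32% of all tested genes were, and 1 was called higher, where 6.71% of all tested genes were. In either direction the calls covered 11.0% of tested genes, or 1571. Of these, 956 were higher and 615 lower; with library totals alone as the scale, 1583 were higher and 416 lower, and the median log2 fold change of all genes moved by 0.12 to 0.17. The same 5 members were called under that scale, in the same directions. All heat libraries lay below all controls for 5 of the 8 members, against 16.8% of all tested genes, and above them for 1, against 20.9%. The median log2 fold change of the 8 was -2.53, beside 0.05 for all tested genes.

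**Figure D1:**
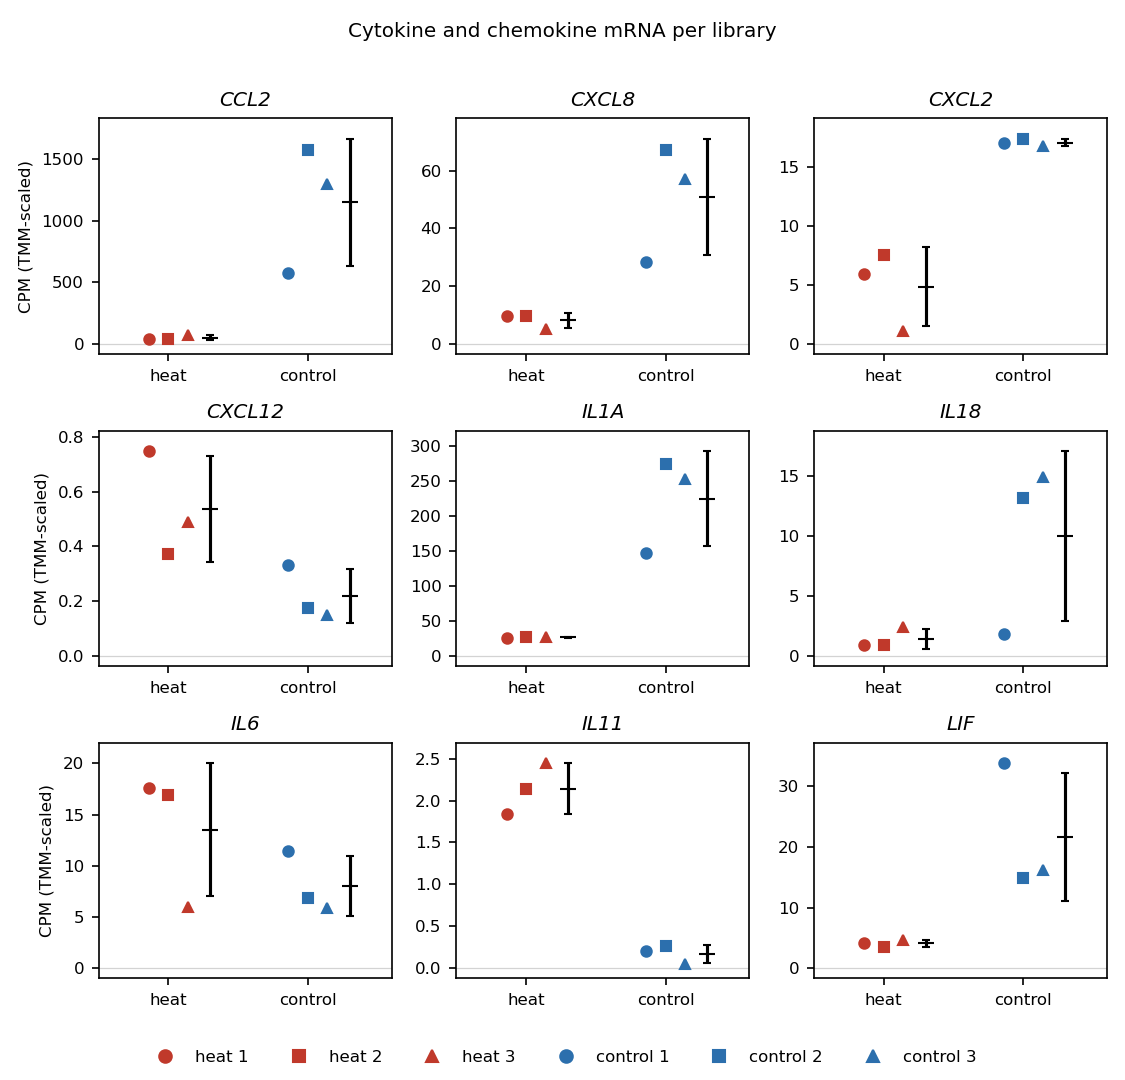
Level of each mediator in each library, in CPM on a linear axis that differs between panels, with heat left of control; symbols mark the replicate number, and the bar beside each group is the mean ± SD (n = 3). CCL2, CXCL8, CXCL2, IL1A and LIF lie lower in every heat library, IL11 lies higher in every heat library, and the groups overlap for IL18 and IL6.

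CCL2, the monocyte attractant, showed the largest change of the 8 tested members. It had 784, 824 and 2349 reads in heat 1, 2 and 3, against 8655, 36088 and 26159 reads in control 1, 2 and 3. As CPM these were 39.1, 38.3 and 71.8 in heat, against 578, 1576 and 1297 in controls. The groups were far apart, the lowest control lying 8.05-fold above the highest heat library, but the other controls stood 2.49-fold above control 1. In the fit the log2 fold change (heat minus control) reached -4.53 ± 0.57 (SE), a level 23.1-fold lower in heat (edgeR adjusted p = 0.0266, lower in 3 of 3 heat libraries than in any control). CCL2 alone gave 37.2, 36.0 and 59.4% of the reads of the 9 matched members in heat 1, 2 and 3, against 70.6, 80.0 and 78.1% in control 1, 2 and 3, shares of reads that are not corrected for gene length. Without CCL2, the other 8 members still summed to 65.9, 68.1 and 49.0 CPM in heat, against 240, 393 and 364 CPM in controls.

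CXCL8, a neutrophil attractant also known as interleukin-8, stood at 9.47, 9.49 and 5.23 CPM in heat 1, 2 and 3, against 28.3, 67.2 and 56.97 CPM in control 1, 2 and 3. Again control 1 was the lowest control, and it still lay 2.98-fold above the highest heat library. The log2 fold change was -2.66 ± 0.44 (SE), a level 6.31-fold lower in heat (edgeR adjusted p = 0.0276).

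CXCL2, which shares its receptor CXCR2 with CXCL8, had 119, 162 and 35 reads in heat, against 255, 398 and 339 reads in controls. Its level was 5.93, 7.53 and 1.07 CPM in heat, against 17.0, 17.4 and 16.8 CPM in controls. The controls were nearly equal, with an SD of 1.68% of their mean, whereas heat 3 was far below the other heat libraries and the SD in heat was 69.5% of the mean. Although the groups did not overlap, CXCL2 did not pass (log2 fold change -1.82 ± 0.62 SE, edgeR adjusted p = 0.0881). It was called lower without heat 3 (log2 fold change -1.36, edgeR adjusted p = 0.0126), beside 36.1% of all tested genes. DESeq2 on all 6 libraries also called it lower (adjusted p = 0.02), beside 27.5% of all tested genes. It was not called by limma-voom (adjusted p = 0.0535) or without control 1 (edgeR adjusted p = 0.0905). Of 32 alternatives, 9 called CXCL2.

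CXCL12, the ligand of CXCR4 and ACKR3, was at the edge of detection. It had 15, 8 and 16 reads in heat, against 5, 4 and 3 reads in controls, and only 2 heat libraries and 0 controls reached the 0.488 CPM that a tested gene needed in 3 libraries. The ratio of summed reads, heat over control and adjusted for library size, was 2.54 with exact 95% bounds of 1.30 and 5.33 for counting error alone. In a fit without the filter its log2 fold change was 1.31 ± 0.83 (SE), which did not pass (edgeR adjusted p = 0.33). Each heat library lay above each control, the closest pair at 0.372 CPM in heat 2 and 0.334 CPM in control 1.

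On the Sscrofa11.1 assembly CCL2 lies at chr12:40798109-40800013 (RefSeq), CXCL8 at chr8:69932646-69935861 and CXCL2 at chr8:70157253-70159145, and CXCL12 lies apart from these clusters at chr14:91516383-91543857. CXCL8 and CXCL2 start 224.6 kb from each other. Between them lie PPBP, with at most 1 read in any library, and LOC100520680 and LOC100525396, which matched no identifier. AMCF-II, a neutrophil attractant of the pig, also lies there. It had 137, 164 and 59 reads in heat, against 145, 3034 and 1906 reads in controls, and was called lower (log2 fold change -3.87 ± 0.97 SE, edgeR adjusted p = 0.0460). Its level in control 1, at 9.68 CPM, was close to the 6.83 and 7.63 CPM of heat 1 and 2, so the high values were those of control 2 and 3. RASSF6, at -159.1 kb from the start of CXCL8, away from CXCL2, was called lower at a low level (log2 fold change -3.08, edgeR adjusted p = 0.0347), with 4, 1 and 9 reads in heat, against 26, 26 and 37 reads in controls. Every heat library lay below the 0.488 CPM needed for testing, so RASSF6 entered the test only through the controls. MTHFD2L, 22.4 kb from the start of CXCL2, was called lower (log2 fold change -1.74, edgeR adjusted p = 0.0339), whereas EREG, a growth factor gene 194.1 kb from the start of CXCL2, was not called (log2 fold change 0.48, edgeR adjusted p = 0.299). The neighbours of CCL2 were nearly silent. CCL1 and CCL8 had 0 reads in every heat library, against at most 1 and 12 reads in a control, and CCL11 had 3, 6 and 6 reads in heat, against 4, 30 and 47 reads in controls. Genes of one chemokine cluster are related in sequence, and how the counting split reads between near copies is not given, so counts of CXCL2 and AMCF-II carry that uncertainty. None of the members overlaps another annotated RefSeq gene.

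IL1A, the alarmin of the interleukin-1 family, was the steadiest member in heat. It had 505, 588 and 875 reads in heat, against 2209, 6266 and 5108 reads in controls. The levels were 25.2, 27.3 and 26.7 CPM in heat, against 147, 274 and 253 CPM in controls, and the lowest control lay 5.39-fold above the highest heat library. The SD was 4.21% of the mean in heat and 30.1% in controls. The log2 fold change was -3.09 ± 0.36 (SE), a level 8.51-fold lower in heat (edgeR adjusted p = 0.0262). IL1A lies at chr3:43718320-43731668 and IL1B, its relative that was not measured here, at chr3:43670126-43677125. None of the tested genes beside IL1A was called, though a small fall could be missed. CKAP2L and POLR1B, 18.2 and 230.7 kb from its start, had log2 fold changes of -0.79 and -0.11 (edgeR adjusted p = 0.173 and 0.789), and the phosphate transporter gene SLC20A1, at 126.4 kb, had one of 2.36 (edgeR adjusted p = 0.0867).

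IL18, an interferon-gamma inducing cytokine, followed the libraries more than the groups. It had 19, 19 and 78 reads in heat, against 28, 302 and 301 reads in controls. As CPM these were 0.947, 0.883 and 2.38 in heat, against 1.87, 13.2 and 14.9 in controls, so control 1 lay below heat 3 and the groups overlapped. IL18 (chr9:39839959-39861258) did not pass, with a log2 fold change of -2.81 ± 0.79 (SE, edgeR adjusted p = 0.0574). It was called lower without control 1 and without heat 3 (edgeR adjusted p = 0.00919 and 0.0425), beside 31.9 and 36.1% of all tested genes. Limma-voom did not call it (adjusted p = 0.0946). Of 31 alternatives, 13 called IL18.

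The gp130 cytokines did not move together. IL11, a cytokine of stromal and bone marrow cells, was the only called member that rose. It had 37, 46 and 80 reads in heat, against 3, 6 and 1 reads in controls, or 1.85, 2.14 and 2.44 CPM in heat, against 0.200, 0.262 and 0.0496 CPM in controls. Each heat library lay above each control, by at least 7.04-fold. IL11 entered the test only through the heat libraries, since 0 controls reached the minimum level, and its call has to be read with that in mind. The log2 fold change was 3.61 ± 0.60 (SE, edgeR adjusted p = 0.0276). The summed reads, 163 in heat and 10 in controls, gave a ratio of 12.7 after adjustment for library size, with exact 95% bounds of 6.75 and 27.1 for counting error alone. IL11 lies at chr6:59540482-59544909.

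LIF, which is known for its part in embryo implantation, fell. It stood at 4.14, 3.44 and 4.65 CPM in heat, against 33.8, 14.9 and 16.2 CPM in controls. Unlike CCL2, CXCL8, IL1A and IL18, it was highest in control 1. The log2 fold change was -2.40 ± 0.41 (SE), a level 5.29-fold lower in heat (edgeR adjusted p = 0.0276). LIF lies at chr14:47221540-47239513.

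IL6, the acute-phase cytokine, had 353, 364 and 197 reads in heat, against 171, 157 and 119 reads in controls. The levels were 17.6, 16.9 and 6.02 CPM in heat, against 11.4, 6.86 and 5.90 CPM in controls. Heat 1 and 2 were above every control, whereas heat 3 lay among the controls. IL6 (chr9:91506421-91510830) did not pass, with a log2 fold change of 0.75 ± 0.48 (SE, edgeR adjusted p = 0.297). The ratio of levels was 0.527 for heat 3 over control 1, the reverse of the direction in the other libraries.

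**Figure D2:**
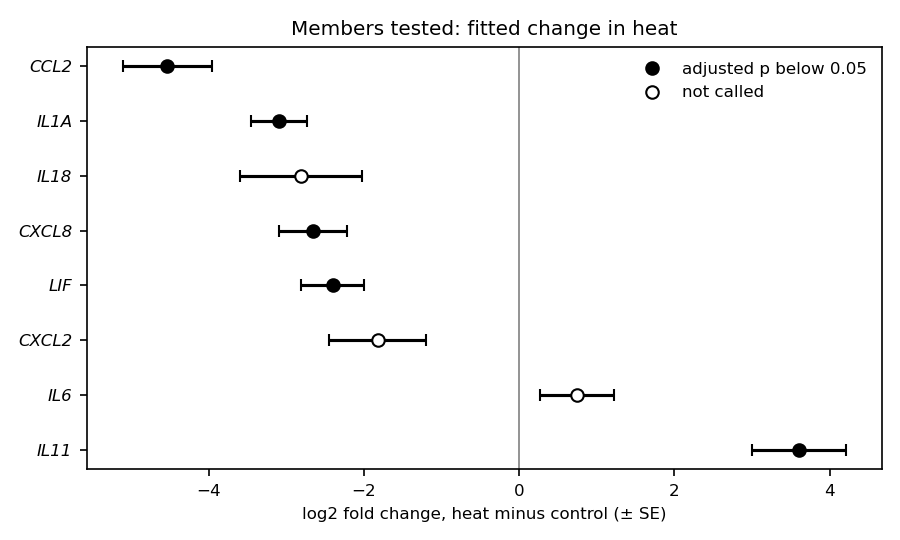
Fitted log2 fold change, heat minus control, with its SE, for the 8 tested members, ordered by size; filled symbols passed the test. The values run from -4.53 for CCL2 to 3.61 for IL11, and the open symbols are IL18, CXCL2 and IL6.

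Since heat 3 and control 1 resembled each other more than either resembled any other library of its own group (Pearson correlation 0.920 across genes), the members were also set against each other within these libraries and without them. Heat 3 against control 1 had the same direction as the other libraries for CCL2, CXCL8, CXCL2, CXCL12, IL1A, IL11 and LIF. The ratio, control 1 over heat 3, was 8.05 for CCL2, 5.42 for CXCL8, 15.9 for CXCL2, 5.52 for IL1A and 7.27 for LIF. In the other libraries, control 2 and 3 over heat 1 and 2, it was 37.1 for CCL2, 6.55 for CXCL8, 2.54 for CXCL2, 10.0 for IL1A and 4.10 for LIF. IL11 kept nearly the same ratio, heat over control, in both sets, at 12.2 in heat 3 over control 1 and 12.8 in the others. IL18 and IL6 turned round: heat 3 over control 1 was 1.28 for IL18 and 0.527 for IL6, and the other libraries gave 0.0651 and 2.71.

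**Figure D3:**
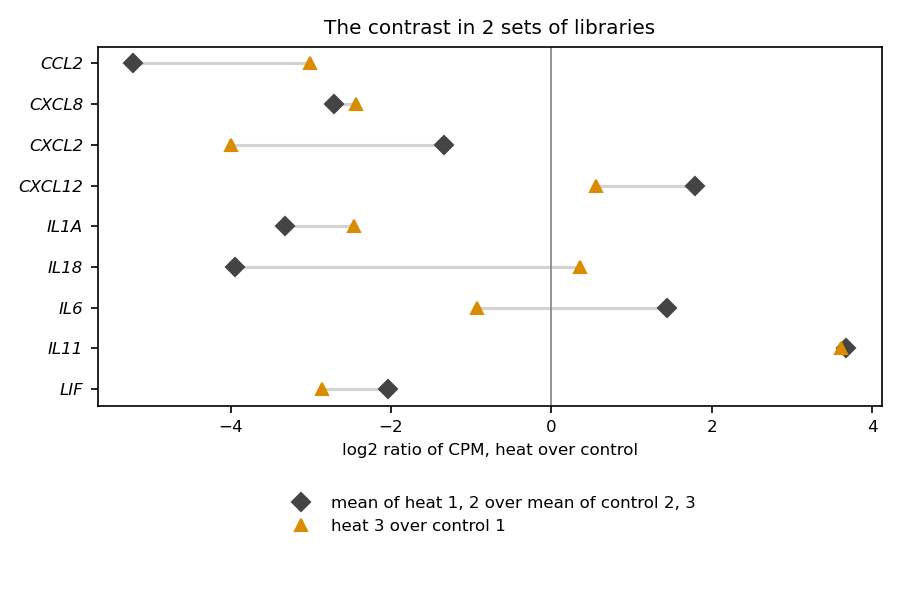
Log2 ratio of CPM, heat over control, for 9 members in heat 1 and 2 over control 2 and 3 (diamonds, ratio of means) and in heat 3 over control 1 (triangles, single libraries, no error). The symbols lie on the same side of 0 for 7 members and on opposite sides for IL18 and IL6.

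The calls depended on single libraries, and the sizes of the changes were less affected for the 5 called members. With each library left out in turn, the log2 fold change stayed between -4.91 and -4.26 for CCL2, between -3.34 and -2.96 for IL1A, between -2.97 and -2.44 for CXCL8, between -2.64 and -1.95 for LIF and between 3.13 and 4.09 for IL11. Of the members not called, IL18 ran between -3.46 and -2.45, CXCL2 between -2.27 and -1.36 and IL6 between 0.51 and 1.08. Without heat 1, heat 2, control 2 or control 3, edgeR called 0 members, with adjusted p-values between 0.133 and 0.144 for these 5. In each of these fits 7 members had an unadjusted p below 0.05, as did between 3159 and 3303 of the 14752 to 15026 genes tested. After adjustment edgeR called between 0 and 7 genes of the whole table. DESeq2 called CCL2, IL1A, CXCL8 and LIF lower and IL11 higher in each of its 6 fits with a library left out. Without heat 1, heat 2, control 2 and control 3 it called 9.25, 9.61, 8.68 and 10.3% of all tested genes. Without heat 3 and without control 1 it called 44.7 and 42.4%. Limma-voom called 0 members without heat 1, heat 2, control 2 or control 3, beside at most 0.0475% of all tested genes. When control 1 was left out, edgeR called 1 member higher and 5 lower, beside 31.9% of all tested genes. When heat 3 was left out, 1 was higher and 6 were lower, beside 36.1% of all tested genes. With both left out it called all 8, and 79.6% of all tested genes. With the near-identical libraries summed, which leaves 2 samples a group, edgeR called 0 members. In that fit 7 members had an unadjusted p below 0.05, as did 1692 of all 15450 tested genes.

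**Figure D4:**
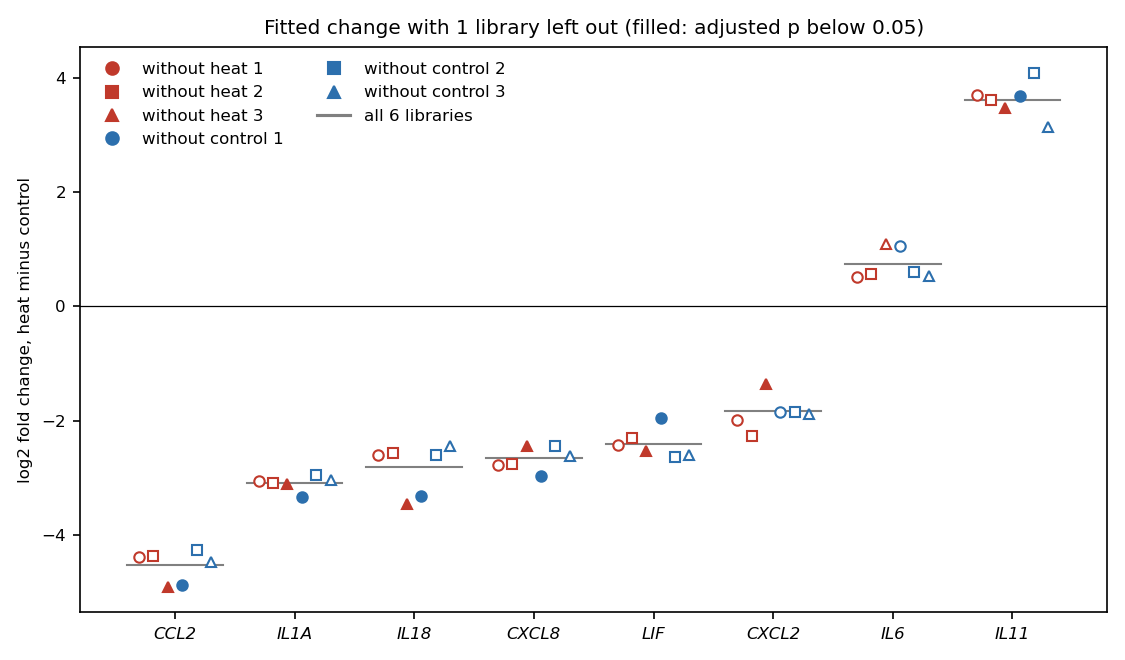
Fitted log2 fold change of the 8 tested members with 1 library left out, coloured by the group of that library; grey lines give the value with all 6 libraries, and filled symbols passed the test. Filled symbols come only from the fits without heat 3 or control 1, and the values lie between -4.91 and -4.26 for CCL2, between -3.46 and -2.45 for IL18 and between -2.27 and -1.36 for CXCL2.

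Of 16 receptor genes listed, CCR2, CXCR1 and CXCR2, which bind CCL2, CXCL8 and CXCL2, matched no identifier and were not analysed here. Of the other 13, 10 were tested and edgeR called 0, with 1 at an unadjusted p below 0.05, while DESeq2 called 1 higher and limma-voom 0. Their median log2 fold change was 0.20. Over all 14242 tested genes, 4832 had an unadjusted p below 0.05 in edgeR. ACKR3, the scavenging receptor of CXCL12, stood at 66.9, 59.9 and 18.4 CPM in heat, against 22.6, 6.51 and 6.89 CPM in controls (log2 fold change 2.02, edgeR adjusted p = 0.0793), so heat 3 lay below control 1. IL1R1, the receptor of IL1A, stood at 32.5, 31.8 and 31.6 CPM in heat, against 52.5, 33.0 and 24.9 CPM in controls, and the groups overlapped. The chain that binds LIF, LIFR, was at 32.7, 32.4 and 37.7 CPM in heat, against 55.5, 16.5 and 13.0 CPM in controls, highest in control 1 like LIF itself. IL6ST, the gp130 chain, stood at 679, 680 and 469 CPM in heat, against 883, 887 and 752 CPM in controls (log2 fold change -0.46 ± 0.36 SE, edgeR adjusted p = 0.385). IL1RAP, the accessory chain of the IL1 receptor, stood at 47.5 ± 3.30 CPM in heat and 51.3 ± 16.1 CPM in controls (SD, n = 3 each; edgeR adjusted p = 0.827). CXCR4, the signalling receptor of CXCL12, was at most 1.31 CPM in any library.

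Other chemokines and cytokines were mostly silent in these cultures. Of 33 further chemokines, 22 matched, 5 were tested and 2 fell, AMCF-II and the interferon-induced T cell attractant CXCL10. DESeq2 also called 2 lower, but limma-voom, both fits on the deposited signal and edgeR without heat 3 called 0; the adjusted p was 0.0627 for AMCF-II and 0.0717 for CXCL10 by limma-voom. CXCL10 was at 1.05, 1.58 and 1.16 CPM in heat, against 2.00, 14.3 and 10.0 CPM in controls (log2 fold change -2.80 ± 0.69 SE, edgeR adjusted p = 0.0442). Of 47 further cytokines, 41 matched, 9 were tested and 1 fell, the alarmin IL33. DESeq2 called 3 higher and 2 lower, limma-voom 1 higher and 0 lower, and both fits on the deposited signal 0, and IL33 was not called by limma-voom (adjusted p = 0.0679). IL33 was at 10.4, 12.2 and 26.8 CPM in heat, against 23.7, 389 and 368 CPM in controls (log2 fold change -3.98 ± 0.98 SE, edgeR adjusted p = 0.0447). For AMCF-II, CXCL10 and IL33 alike the high libraries were control 2 and 3, and control 1 lay near the heat libraries. IL1RL1, which encodes the receptor of IL33 and a soluble decoy form, stood at 93.4 ± 32.6 CPM in heat and 93.8 ± 63.2 CPM in controls (SD, n = 3 each; edgeR adjusted p = 0.994). SIGIRR, a negative regulator of IL1 signalling, was at most 0.349 CPM in any library and was not tested.

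Over the 13 lists other than the members, edgeR called 13 genes higher, 6 of them the heat shock genes, and 6 lower, of which REL alone acts downstream of the mediators; without heat 1, heat 2, control 2 or control 3 it called 0 or 1 higher and 0 lower, without heat 3 31 and 17, and without control 1 34 and 22. In the pathway from the IL1 receptor to NF-kB, with 28 of 28 genes tested, 4 rose and 1 fell, beside 6.71 and 4.32% of all tested genes. RLE size factors gave 3 and 3 in this list, library totals 6 and 0, DESeq2 8 and 4 and limma-voom 3 and 2. IRAK1, the kinase that relays the receptor signal, stood at 31.2, 33.0 and 14.7 CPM in heat, against 6.88, 4.37 and 5.01 CPM in controls (log2 fold change 2.28 ± 0.41 SE, edgeR adjusted p = 0.0293). TAB1, which activates the next kinase, BCL3, a nuclear partner of NF-kB, and the NF-kB subunit RELA also rose, with log2 fold changes of 1.71, 2.31 and 1.29 (edgeR adjusted p = 0.0393, 0.0495 and 0.0456). REL, another NF-kB subunit, fell to 21.0, 19.4 and 35.7 CPM in heat, against 68.4, 64.4 and 62.7 CPM in controls (log2 fold change -1.36 ± 0.33 SE, edgeR adjusted p = 0.0435). The median of the 28 was 0.40, beside 0.05 for all tested genes.

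Of 13 genes of gp130 signalling, all tested, 2 rose and 0 fell (DESeq2 called 4 and 2, limma-voom 1 and 1), and the median log2 fold change was 0.70. They were SOCS1 and SOCS3, inhibitors that STAT proteins induce and that shut off cytokine receptors. SOCS3 was at 29.4, 40.9 and 7.64 CPM in heat, against 4.21, 2.23 and 4.61 CPM in controls (log2 fold change 2.82 ± 0.63 SE, edgeR adjusted p = 0.0391). SOCS1 was at 3.29, 3.12 and 1.13 CPM in heat, against 0.467, 0.131 and 0.347 CPM in controls (log2 fold change 3.01 ± 0.66 SE, edgeR adjusted p = 0.0384). For both, heat 1 and 2 were well above heat 3. All 3 controls of SOCS1 lay below the 0.488 CPM needed for testing, so, like IL11, it entered the test only through the heat libraries.

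Of 13 genes that bind AU-rich cytokine transcripts and set their decay, all tested, edgeR called 0, with 2 at an unadjusted p below 0.05, while DESeq2 called 1 lower and limma-voom 0. ZFP36L1, a decay factor, stood at 468 ± 59.1 CPM in heat and 212 ± 120.2 CPM in controls (SD, n = 3 each; edgeR adjusted p = 0.124), and RC3H2, another, at 86.9 ± 14.6 CPM in heat and 137 ± 7.53 CPM in controls (SD, n = 3 each; edgeR adjusted p = 0.149). In the list of inflammasome and IL1 processing genes, 6 of 9 matched genes were tested and 1 rose, the calpain gene CAPN1, whose enzyme family cleaves the IL1A precursor. CAPN1 was at 20.0, 23.5 and 27.2 CPM in heat, against 10.0, 10.2 and 12.4 CPM in controls (log2 fold change 1.12 ± 0.28 SE, edgeR adjusted p = 0.0461). CASP1, the protease of the IL18 precursor, was at most 0.645 CPM in any library.

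**Figure D5:**
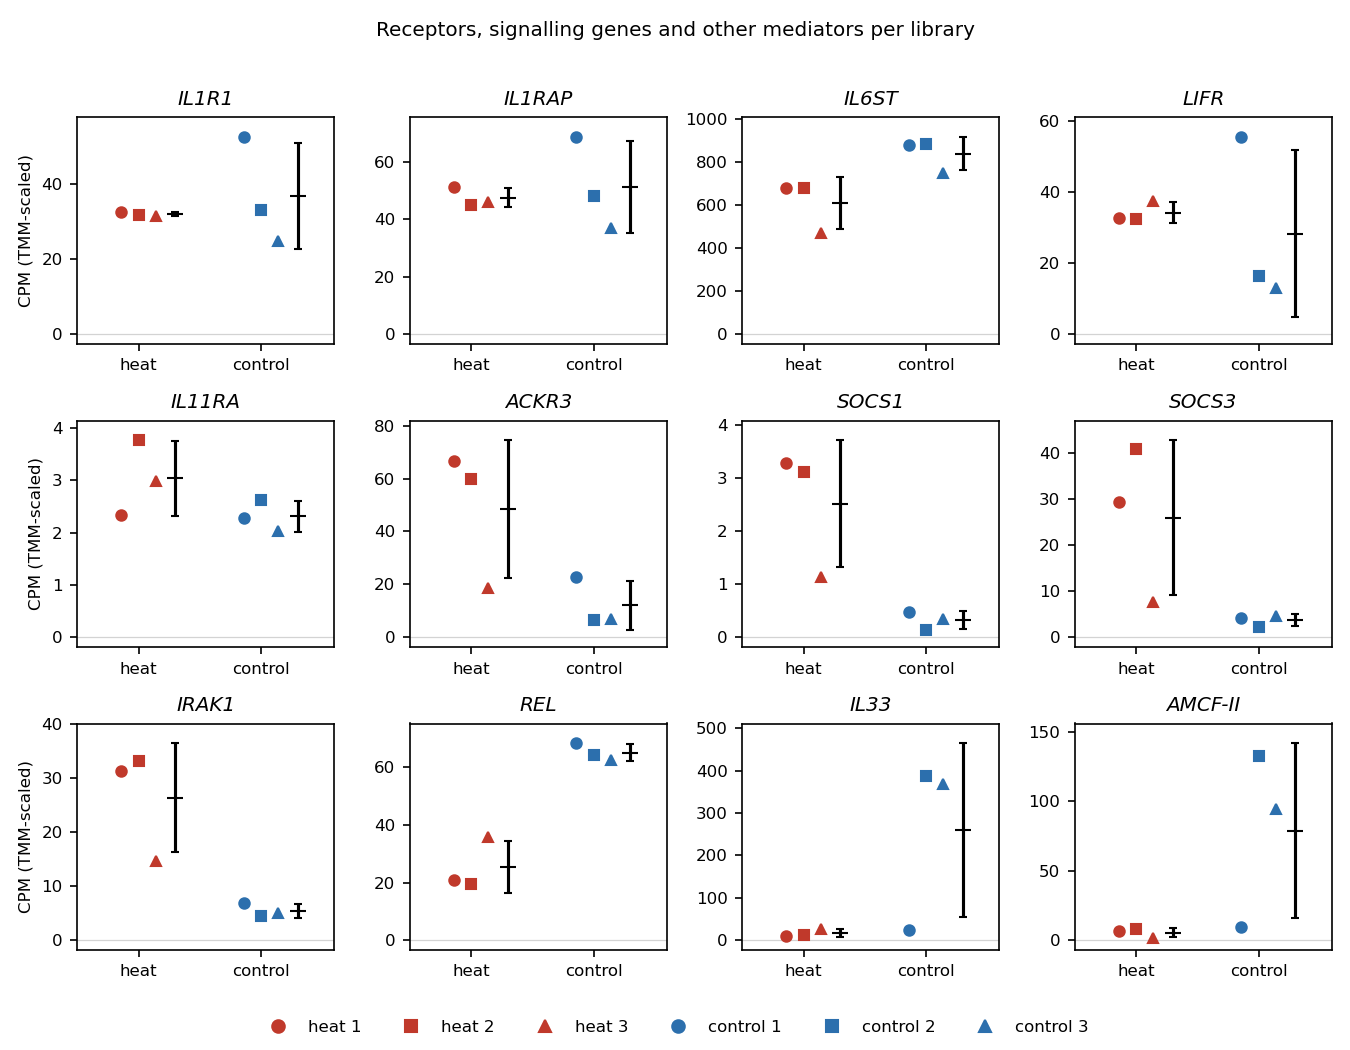
Levels of receptors, signalling genes and other mediators in each library, in CPM on linear axes that differ between panels, with heat left of control and the mean ± SD (n = 3) beside each group. SOCS1, SOCS3 and IRAK1 lie higher and REL lower in every heat library, the receptor panels overlap except IL6ST, and IL33 and AMCF-II are high only in control 2 and 3.

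The labelled cell type was checked with marker genes. Of 17 granulosa cell markers, CYP19A1, FOXL2 and HSD3B1 matched no identifier and were not analysed here. The 14 that matched summed to 1068, 915 and 764 CPM in heat, against 1213, 495 and 460 CPM in control 1, 2 and 3. In control 2 and 3, 4 of the 14 were lower than in all other libraries, a pattern not counted over all genes. Of the 9 tested genes edgeR called 0, with 2 at an unadjusted p below 0.05, while DESeq2 and limma-voom each called 1 higher. CYP11A1, INHBA, GATA4 and SERPINE2 were present in every library, but the FSH receptor gene FSHR had at most 2 reads in a heat library and 49 in a control, and INHA at most 2 and 7. SERPINE2 stood at 656, 531 and 411 CPM in heat, against 701, 201 and 185 CPM in controls (edgeR adjusted p = 0.512, and 0.0251 without control 1). INHBA stood at 183, 154 and 182 CPM in heat, against 387, 209 and 198 CPM in controls. Together SERPINE2 and INHBA made up most of the summed marker level in every library.

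Stromal markers split the controls, as the sum of the granulosa cell markers also did. Of 12 theca and stromal markers, 11 matched and 8 were tested. EdgeR called 0, with 0 at an unadjusted p below 0.05, and DESeq2 and limma-voom also called 0. Without control 1 each of the 3 tools called 6 higher. In those fits edgeR called 31.9%, DESeq2 42.4% and limma-voom 29.1% of all tested genes in either direction. The replicate block called 3 markers higher, beside 23.9% of all tested genes in either direction. The 11 summed to between 25131 and 50822 CPM in heat, against 39836, 12096 and 11814 CPM in control 1, 2 and 3, and 7 of them were lower in control 2 and 3 than in all other libraries. How many of all genes had that pattern was not counted. The collagen gene COL1A1 stood at 20725, 17944 and 5579 CPM in heat, against 17714, 270.1 and 387 CPM in controls, with a log2 fold change of 1.27 that was 5.47 without control 1 (edgeR adjusted p = 0.56 and 0.00913). COL3A1, another collagen gene, stood at 24429, 22987 and 7507 CPM in heat, against 14795, 4194 and 3453 CPM in controls (edgeR adjusted p = 0.271, and 0.0416 without control 1). The theca marker CYP17A1 had at most 4 reads. LIF was likewise highest in control 1, by 2.18-fold over control 2 and 3. Among controls IL6 and CXCL12 were also highest there, by 1.79- and 2.06-fold, CXCL12 at very few reads. CCL2, CXCL8, IL1A and IL18 were lowest there among controls. The part of stromal cells in these levels was not tested. Of 10 endothelial markers, 5 were tested and 1 fell, the transcription factor ERG (edgeR adjusted p = 0.0462), but CDH5 had 0 reads in every library.

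Some leukocyte markers were high in control 2 and 3. Of 20 listed, 19 matched, 5 were tested and 1 fell, the lysozyme gene LYZ (edgeR adjusted p = 0.0447), although its heat and control libraries overlapped, and limma-voom and both fits on the deposited signal called 0. The median log2 fold change of the 5 was 0.08. The 19 summed to between 2.90 and 12.1 CPM in heat, against 4.47, 39.3 and 79.6 CPM in control 1, 2 and 3. Of the 19, 9 were higher in control 2 and 3 than in all other libraries. The share of all genes with that pattern was not counted, so the 9 cannot be set against it. PTPRC, which encodes CD45, had 0 reads in each heat library and in control 1, against 35 and 64 reads in control 2 and 3. CD163, a macrophage receptor, had 1, 3 and 0 reads in heat, against 0, 66 and 101 reads in control 1, 2 and 3, and the T and B cell markers CD3E and MS4A1 were at 0 in every library. Others ran differently: CD74 was at 4.39, 3.95 and 0.397 CPM in heat, against 0, 0.873 and 1.79 CPM in controls, ITGAM at 0.349, 0.372 and 0.0917 CPM in heat, against 0, 0.131 and 0.149 CPM in controls, and CD14 and SPI1 overlapped between the groups (log2 fold changes 0.08 and 0.35). CCL2, CXCL8, IL1A and IL18 were likewise higher in control 2 and 3 than in control 1, by 2.49-, 2.19-, 1.79- and 7.52-fold. The part of leukocytes in these levels was not tested. In control 1, PTPRC and CD163 had 0 reads, CD14 had 27 and LYZ 7, and CCL2 was at 578 CPM and IL1A at 147 CPM.

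The genes whose pattern over the 6 libraries was most like that of each called member were found by the root mean square difference between log2 CPM values centred on their own means. For CCL2 they were PARP14, SYCP2 and SHAS2, at differences of 0.39, 0.45 and 0.52. For IL1A they were HFM1, ACKR4 and ALPK1, at 0.23, 0.24 and 0.32, and for CXCL8 they were VCAM1, RSPO2 and IFIH1, at 0.23, 0.24 and 0.34. CENPE, RAD50 and MEIOB were most like LIF, at 0.18, 0.21 and 0.25, and ZBED4, HSPH1 and HSPA1L were most like IL11, at 0.43, 0.46 and 0.52. VCAM1, an adhesion molecule for leukocytes, was at 54.8, 57.4 and 32.1 CPM in heat, against 234, 401 and 273 CPM in controls, and HSPH1, a heat shock protein, at 1433, 1434 and 1678 CPM in heat, against 189, 100.1 and 87.7 CPM in controls.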

How the data were processed

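RNA was measured in 6 libraries from cultured pig granulosa cells, 3 of heat and 3 of control cultures, grouped by the labels. Per the submitters' processing notes, FastQC 0.11.4, Trim Galore and STAR were used with the Sscrofa11.1 build. The counting tool and the annotation release were not given in the sources used here. A table deposited by the authors holds raw counts per Ensembl gene. A second deposited table holds a signal, the counts of 13298 genes divided by the authors by 1 size factor per library; multiplying back gave whole reads for 100% of values within a tolerance of 1e-06.

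Symbols came from the reference table, matched exactly, and coordinates from RefSeq genes of Sscrofa11.1 matched by symbol. Genes were kept by filterByExpr (minimum count 10), leaving 14242. Heat was compared with control by edgeR 4.0.16 (quasi-likelihood F test, TMM factors, robust) in R 4.3.3, with Benjamini-Hochberg adjustment over all of these genes, called below 0.05. SEs are the absolute log2 fold change divided by F to the power 0.5. Libraries of a group varied with a common coefficient of variation of 43.6%. DESeq2 1.42.0 and limma 3.58.1 served as alternatives, with other scalings, filters and thresholds, a replicate block, libraries left out or summed, and pseudocounts of 1 and 0.5 on the deposited signal. The fit on recovered reads, and the runs of both other tools without each library, were chosen after seeing the data. On simulated data of 14242 genes the test recovered 0, 40, 90 and 94% of 50 genes changed by 2-, 4-, 8- and 16-fold, and called 6 genes that were not changed. Each simulated library varied independently around its group mean, without the near-identical pairs seen here, so these rates need not hold for the real libraries.

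The members, lists and tests were chosen with earlier results of these data known. Every member is named. Of each other list, up to 4 called genes by absolute log2 fold change are named, or, where none was called, the 2 of highest mean level. For each called member the 3 genes most alike are named, among those with a symbol and a mean log2 CPM (prior count 2) of at least 1. Genomic neighbours, RELA (the fifth called gene of its list), CD74, ITGAM, CD14, SPI1, ACKR3, IL1R1, LIFR, CXCR4, CASP1, GATA4, CYP11A1 and marker genes at or near 0 were named after their values were seen. Bounds on read ratios are exact, at the 95% level. The planned motif search in promoters was not run.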

Additional observations from a re-analysis of the deposited data

How the results depend on the processing

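With 3 libraries a group and a common coefficient of variation of 43.6%, CXCL12 (39 reads in heat and 12 in controls) was left out by the filter on low counts. Every member tested kept its direction in each alternative that fitted it. The same 4 members were called lower and IL11 higher with RLE size factors, library totals, limma-voom, both pseudocounts on the deposited signal, a test against a 1.5-fold change and the reads recovered from the normalized table. The cause of the differences below was not tested.

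Members called were 0 higher and 4 lower where 10 CPM in 3 libraries was required, which leaves IL11 untested, 2 higher and 6 lower without control 1 and heat 3, and 0 and 0 with near-identical libraries summed or at an adjusted p below 0.01. No filter and DESeq2 gave 1 and 6. With 1 library left out edgeR called between 0 and 1 higher and between 0 and 6 lower, DESeq2 between 1 and 2 higher and between 5 and 6 lower (2 higher without heat 3), and limma-voom between 0 and 2 higher and between 0 and 5 lower (2 higher without heat 3, 0 and 0 without heat 1, heat 2, control 2 or control 3).

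The replicate block called 1 member higher and 6 lower, 2104 genes higher and 1300 lower, and 28 and 10 genes of the other lists. Libraries with the same number had deviations correlated at 0.299, -0.232 and 0.223 for numbers 1, 2 and 3, and not every library correlated best with its own number. The signs follow from heat 3 and control 1 standing apart, so these values cannot decide whether the numbers pair the samples. They were not taken as pairs, since the labels do not say that a number marks a shared animal or culture.

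Over all genes, 1583 were called higher and 416 lower with library totals, 1607 and 850 without a filter, 532 and 396 at 10 CPM, 2118 and 1792 by DESeq2, 1182 and 950 on the signal with pseudocount 1, 6285 and 5857 without control 1 and heat 3, 2 and 0 with libraries summed, 9 and 1 at an adjusted p below 0.01, and 162 and 94 against a 1.5-fold change. With 1 library left out edgeR called between 0 and 3021 higher and between 0 and 2713 lower. DESeq2 called 3262 and 3595 without heat 3 and 3670 and 2865 without control 1. It called 673 and 692 without heat 1, 694 and 725 without heat 2, 812 and 493 without control 2, and 947 and 596 without control 3. Limma-voom called 3498 and 2752 without heat 3, 2422 and 2057 without control 1, 6 and 1 without heat 1 and also without heat 2, 0 and 0 without control 2, and 2 and 0 without control 3.

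Of the other lists, 24 genes were called higher and 13 lower by DESeq2, 19 and 14 without a filter, 10 and 3 at 10 CPM, 62 and 42 without control 1 and heat 3, 1 and 0 with libraries summed, 2 and 0 at an adjusted p below 0.01, and 6 and 0 against a 1.5-fold change. With 1 library left out edgeR called between 0 and 34 higher and between 0 and 22 lower. DESeq2 called 9 and 11 without heat 1 and also without heat 2, 38 and 28 without heat 3, and 41 and 24 without control 1. Limma-voom called 2 and 0 without heat 1 and also without heat 2, 37 and 16 without heat 3, 33 and 22 without control 1, 0 and 0 without control 2, and 1 and 0 without control 3.

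The log2 fold change of IL1RAP, at -0.11, turned to 0.050 with library totals, 0.0295 at 10 CPM and 0.16 without control 1 and heat 3. Without control 1 it was 0.13, 0.080 and 0.15 by edgeR, DESeq2 and limma-voom, and with 1 library left out edgeR gave between -0.33 and 0.13. That of IL1RL1, at -0.01, turned to 0.19 with library totals, 0.16 at 10 CPM, 0.13 by limma-voom, 0.12 with either pseudocount, 0.11 with the replicate block, 0.00281 on recovered reads and 0.94 without control 1 and heat 3. Without heat 3 it was 0.24, 0.21 and 0.44, and without control 1 it was 0.67, 0.62 and 0.63, by edgeR, DESeq2 and limma-voom. With 1 library left out edgeR gave between -0.34 and 0.67.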

Other observations

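Some mediators outside the 10 were high in heat 1 and 2 in particular; they were picked after their values were seen. OSM, which encodes oncostatin M, another cytokine that signals through gp130, had 47, 62 and 4 reads in heat, against 0, 1 and 1 reads in controls, and was too low in heat 3 and the controls to be tested. CLCF1, also a gp130 cytokine, stood at 31.7, 30.2 and 10.2 CPM in heat, against 10.5, 3.76 and 4.56 CPM in controls (log2 fold change 1.94, edgeR adjusted p = 0.0626). CSF1, the growth factor of macrophages, stood at 170.9, 157 and 20.0 CPM in heat, against 54.3, 6.33 and 7.83 CPM in controls (log2 fold change 2.35, edgeR adjusted p = 0.154). In each of these heat 3 was far below heat 1 and 2, the pattern that IL6 also had. Of the other listed mediators, 6 chemokines, CCL17 and CCL21 among them, and 11 cytokines, IL4 and IFNG among them, had 0 reads in every library.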
